A study of Mus musculus with 6 samples.

Results

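The genes described here are the BCL2 family, the caspases, the death receptors and their direct partners, in the mesenchyme of a duct that regresses in one sex and persists in the other. They were taken by gene symbol from a list of 39, all of which were found among the 37991 gene identifiers counted. Expression was measured by RNA sequencing of mesenchyme sorted from around the Müllerian duct, the embryonic tube that becomes oviduct and uterus in females and is lost in males, where the testis secretes anti-Müllerian hormone (AMH). There were 3 male and 3 female libraries from embryos at embryonic day 14.5, on a mixed C57BL/6J and 129/SvEv background. All 6 carried the same alleles, Amhr2Cre/+ and R26R YFP/+, so the groups differed in sex and not in these alleles. Amhr2Cre drives Cre from the gene of the AMH receptor and R26R YFP is a reporter that Cre switches on. Amhr2Cre is also active in somatic cells of the gonad. Cells were sorted for YFP, and each library pooled the cells of 2 to 7 embryos. The labels call the replicates biological, without saying whether a replicate number marks a shared litter or day.

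The libraries held 22511872 to 24749859 counts in genes. Values are counts-per-million (CPM) of the counts in genes after TMM scaling, a correction for library composition. Mesenchyme markers were present in both sexes, with the summed CPM of 8 markers between 3127 and 3809 in male and between 2495 and 2957 in female libraries. The 8 did not move together. Every male library lay above every female library in 2 (Wnt4, Pdgfra) and below in 2 (Hoxa11, Hoxa10), and the others overlapped. Amhr2, among the latter, averaged 338.8 CPM in male and 530.3 CPM in female libraries. By edgeR 0 of the 8 were called. Duct epithelium markers summed to 13.4 to 29.2 CPM in male and 26.8 to 42.3 CPM in female libraries. Of the 4 tested, only Epcam was called, lower in male (log2 fold change −2.41, edgeR adjusted p = 0.0381). Pax8, Wnt7a and Cdh1 had −0.04, 0.63 and 0.19, and each overlapped between the sexes. Pax2 and Lhx1, too low to test, had lower male means. The 10 macrophage and leukocyte markers summed to at most 17.1 and 13.1 CPM. Endothelium markers summed to 143.8 to 330.8 CPM in male and 48.6 to 94.8 CPM in female libraries, most of it Kdr, at means of 207.6 CPM in male and 66.2 CPM in female libraries, while the other 6 markers each had a mean of at most 3.52 CPM. Germ cell markers summed to at most 6.38 CPM in male and 4.57 CPM in female libraries, and 5 mesothelium markers to 150.0 to 387.5 CPM in male and 192.5 to 504.9 CPM in female libraries. Sertoli cell markers summed to 58.6 to 97.9 CPM in male and 9.59 to 13.1 CPM in female libraries (exact permutation p = 0.1 for the mesenchyme, the endothelium and the Sertoli sum, the smallest possible with 3 against 3). Of the 5 Sertoli markers tested, edgeR called 3 higher in male. Amh had a log2 fold change of 4.71 (adjusted p = 0.0194), with means of 17.2 CPM in male and 0.653 CPM in female libraries. Cst9 had 6.44 (adjusted p = 0.0226) and Sox9 2.55 (adjusted p = 0.0308). Dhh had 5.95 (adjusted p = 0.0516) and Ptgds 0.21. Sp7, the gene of osterix in the series title, had 184.9, 217.6 and 282.0 CPM in male against 27.7, 31.9 and 27.5 CPM in female libraries.

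Apoptosis runs along a pair of routes that meet at the caspases, the proteases that take the cell apart. In the mitochondrial route BH3-only proteins sense damage and release the pore formers BAX and BAK from their BCL2-type protectors. BOK is counted here as a further pore former. The opened mitochondria let out cytochrome c, which builds the apoptosome with APAF1 and caspase 9. In the other route ligands of the TNF family bind death receptors such as FAS, which recruit FADD and caspase 8, with c-FLIP as the brake. IAP proteins hold caspases in check, and SMAC and HTRA2 lift that hold. Epithelial cells of the male duct are known to die during regression, after AMH has acted on the surrounding mesenchyme.

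In 3 of the 39 genes, Fas, Bnip3 and Casp6, every male library lay above every female library, as in 6.47% of all genes tested. The sequences before their transcription starts are shown because no other gene of the 39 was separate between the sexes. Each run is the 250 bases before the start, on the gene's own strand, from the RefSeq promoter table of the build GRCm38.p6, which is not the build the counts were made on. Capitals mark the GC box GGGCGG, a motif bound by factors of the Sp family, and ACGTG, the core bound by hypoxia-inducible factors, on either strand. A CACGTG holds that core on both strands at once. Binding by osterix was not tested.
Fas, chr19:34290409-34290658, plus strand: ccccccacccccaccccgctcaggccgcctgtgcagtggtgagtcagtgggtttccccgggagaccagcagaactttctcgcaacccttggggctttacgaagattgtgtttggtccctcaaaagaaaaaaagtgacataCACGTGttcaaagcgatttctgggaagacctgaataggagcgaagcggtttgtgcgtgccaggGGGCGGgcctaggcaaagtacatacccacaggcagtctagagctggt
Bnip3, chr7:138909507-138909756, minus strand: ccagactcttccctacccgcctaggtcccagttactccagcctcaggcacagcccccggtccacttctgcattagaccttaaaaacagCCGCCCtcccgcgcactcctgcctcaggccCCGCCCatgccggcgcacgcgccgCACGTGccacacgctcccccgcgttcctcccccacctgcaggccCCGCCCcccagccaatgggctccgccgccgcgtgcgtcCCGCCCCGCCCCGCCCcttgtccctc
Casp6, chr3:129901165-129901414, plus strand: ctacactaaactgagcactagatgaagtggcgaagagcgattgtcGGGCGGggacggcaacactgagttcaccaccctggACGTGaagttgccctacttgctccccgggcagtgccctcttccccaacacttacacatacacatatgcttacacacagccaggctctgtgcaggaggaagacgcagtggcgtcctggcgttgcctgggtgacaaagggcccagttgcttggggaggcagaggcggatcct
The Bnip3 run held 6 GC boxes, all read on the opposite strand and 3 of them overlapping, and 1 CACGTG. The Fas run held 1 GC box and 1 CACGTG, and the Casp6 run 1 GC box and 1 ACGTG. Both motifs are common: the GC box was in 32.7% of 32851 such windows over all genes and the ACGTG core in 16.6%, against 61.4% and 22.7% of the 44 windows that 33 of the 39 genes have in the table. A match is a description of the letters and not a bound site.

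None of the cell death genes passed the test between the sexes. Of the 39, 38 had enough counts to be tested and 0 passed in edgeR's quasi-likelihood test, in which 1.23% of all genes tested were called at an adjusted p under 0.05, 0.841% higher and 0.387% lower in male. At an unadjusted p under 0.05, 3 of 38 passed by edgeR, namely Fas, Bnip3 and Casp6, all with higher male values, where 9.18% of all genes did so, 4.68% higher and 4.51% lower. By limma-voom 0 passed, and by DESeq2, a second count test, 2 passed (Fas and Bnip3), where 1.43% and 5.06% of all genes did; both were higher, and DESeq2 called 2.92% of all genes higher and 2.15% lower. The libraries of the sexes did not overlap in 3 of the 38, all 3 higher in male, against 13.7% of all genes in either direction, 6.47% with male above and 7.27% with male below. The log2 fold change, male over female throughout, was above 0 in 23 of the 38 and had a median of 0.13, beside 49.5% above 0 and a median of −0.01 over all genes tested. The 39th gene, Hrk, a BH3-only gene best known from neurons, had 13 counts over the male and 8 over the female libraries.

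**Figure D1:**
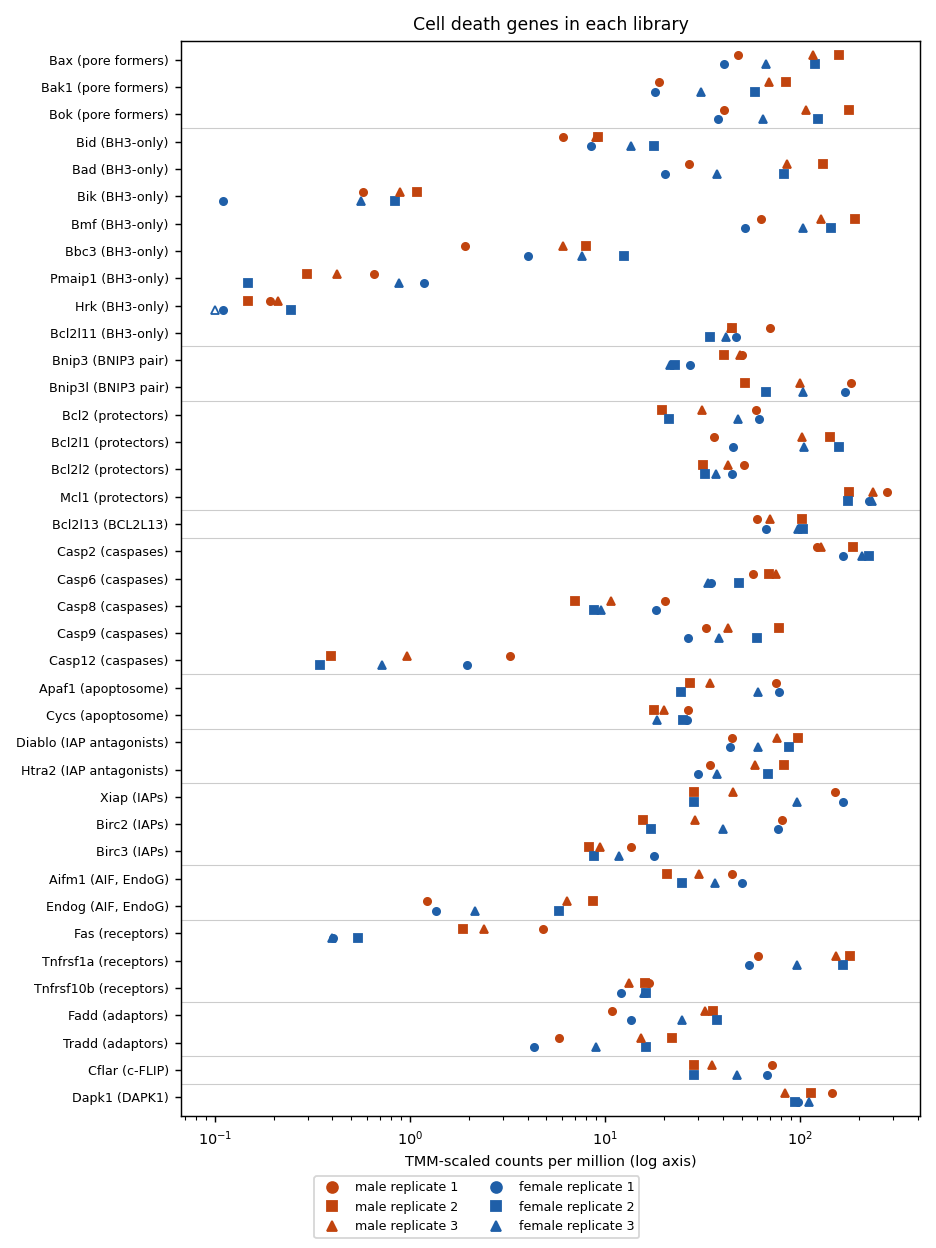
TMM-scaled CPM (log axis) of the 39 cell death genes in each library, male above female in every row, with the marker shape giving the replicate number and the role in brackets. Fas, Bnip3 and Casp6 are the rows in which all male points lie right of all female points; the open marker of Hrk is a library with no count, drawn at 0.1.

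Fas, the receptor through which FAS ligand triggers death, had the largest sex difference of the set, from a low level. It stood at 4.82, 1.88 and 2.40 CPM in male libraries against 0.404, 0.541 and 0.400 CPM in female libraries, resting on 221 and 32 counts in all. The lowest male library was above the highest female library, and male replicate 1 was the highest of the 6. The log2 fold change was 2.75 (SE 0.52), a 6.74-fold difference, which missed the threshold by edgeR (adjusted p = 0.0655). It passed by DESeq2 (log2 fold change 2.79, SE 0.60, adjusted p = 0.000159) and in edgeR with an offset for the GC content and length of the transcripts (2.66, SE 0.41, adjusted p = 0.0128). Adjusted p-values ran from 0.000159 to 1 over the 17 alternatives that left the replicate number out of the model. Fits with the replicate number as a term are given at the end. Fas was the only 1 of the 38 called with the offset, a fit that called 5.94% of all genes, 3.02% higher and 2.92% lower. In bulk libraries such as these, more cells that express a gene and more RNA per cell cannot be told apart. The endothelium sum, mostly Kdr, and the Sertoli sum, mostly Sox9 (means of 45.2 CPM in male and 7.74 CPM in female libraries), were also higher in male. Every male library lay above every female library in 1 of the 7 endothelium and 5 of the 6 Sertoli markers. The part of these cells in the Fas difference was not tested.

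The other genes of the receptor route among the 39 did not pass the edgeR test either, and the libraries of the sexes overlapped in each. Tnfrsf1a, the main TNF receptor, was the most abundant receptor, with 60.9 CPM per kilobase of transcript in male and 49.0 in female libraries. Its levels were 61.0, 180.0 and 152.9 CPM in male and 54.8, 166.1 and 96.3 CPM in female libraries (log2 fold change 0.31, SE 0.57). Replicate 1 was the lowest library in each sex and the sexes overlapped. Tnfrsf10b, the only mouse death receptor for TRAIL, was the steadiest gene of the route, at 16.8, 16.0 and 13.3 CPM in male and 12.1, 16.1 and 15.8 CPM in female libraries, with a log2 fold change of 0.06 (SE 0.32). The adaptor genes Fadd and Tradd had 0.06 (SE 0.58) and 0.54 (SE 0.65). Casp8, the initiator caspase of the route, had 20.2, 6.97 and 10.7 CPM in male against 18.2, 8.80 and 9.52 CPM in female libraries. Cflar, which encodes c-FLIP, its inhibitor, had 71.9, 28.5 and 35.4 CPM in male against 67.6, 28.5 and 47.2 CPM in female libraries. The level per kilobase of transcript of Casp8 relative to Cflar was 0.714, 0.622 and 0.769 in male and 0.684, 0.785 and 0.513 in female libraries, which overlapped. Of the ligands, Fasl held no count in male and 1 count in female libraries, under the 3 counts that a count of 0 allows. Tnfsf10, the TRAIL gene, held 16 and 22 counts over the male and female libraries, and Tnf 21 and 4, with every male library above every female library.

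Bnip3, a mitochondrial BH3-like protein known for mitophagy and for induction by hypoxia, had higher values in every male library than in any female library, from ordinary levels. It had 50.1, 40.7 and 49.3 CPM in male against 27.1, 22.9 and 21.5 CPM in female libraries. The sexes were separate and each was tight, with a spread of 1.23-fold within male and 1.26-fold within female libraries. The log2 fold change was 0.97 (SE 0.30), a 1.96-fold difference. It missed the threshold by edgeR (adjusted p = 0.266), also once GC content and length were offset (1.03, SE 0.33, adjusted p = 0.15). It passed by DESeq2 (adjusted p = 0.0426), and adjusted p-values ran from 0.0426 to 1 over the same 17 alternatives. With the replicate number as a term in edgeR, Bnip3 had an adjusted p of 3.22e-06, and of 0.000216 with the offset added. Those fits called 4164 and 4418 of all 15227 genes tested. An annotated antisense gene covers 22.3% of the exon bases of Bnip3, and the kit does not mark strand. Its relative Bnip3l, a mitophagy receptor also called NIX, had 181.5, 52.1 and 99.1 CPM in male and 169.1, 66.8 and 103.1 CPM in female libraries, a log2 fold change of −0.03 (SE 0.56). Bnip3l is also known from maturing red cells, whose markers summed to at most 11.4 CPM in male and 8.44 CPM in female libraries.

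**Figure D2:**
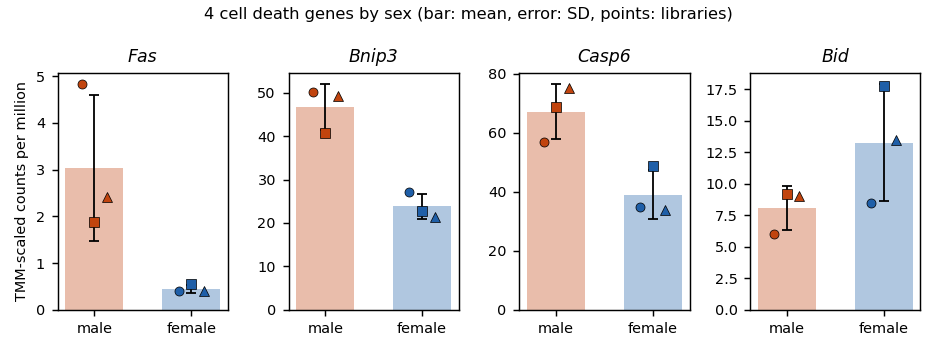
TMM-scaled CPM of Fas, Bnip3, Casp6 and Bid in male and female libraries, as points with the marker shape giving the replicate number (circle 1, square 2, triangle 3), bars for the mean and error bars for the SD of 3 libraries. The sexes are separate for Fas, Bnip3 and Casp6, and overlap for Bid, whose mean was 8.09 CPM in male and 13.2 CPM in female libraries.

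Among the caspases only Casp6 was separate between the sexes, and 4 of the 5 had higher and 1 a lower male level. Casp6, an executioner caspase that cleaves lamins, had 56.9, 68.8 and 75.3 CPM in male against 34.8, 48.6 and 33.7 CPM in female libraries. No male library fell within the female range, and the log2 fold change was 0.78 (SE 0.32, edgeR adjusted p = 0.513). Casp2, an initiator caspase that answers to DNA and mitotic damage, was the most abundant caspase per kilobase of transcript, at 41.2 CPM per kb in male and 56.4 CPM per kb in female libraries. Its levels were 122.2, 185.9 and 128.0 CPM in male and 164.7, 224.2 and 207.9 CPM in female libraries. Its log2 fold change was −0.45 (SE 0.33), and male replicate 2 lay within the female range. Casp9, the initiator of the mitochondrial route, had 33.0, 77.8 and 42.4 CPM in male and 26.4, 59.9 and 38.4 CPM in female libraries. Casp12, a caspase of the endoplasmic reticulum in mice, had at most 3.25 CPM in male and 1.95 CPM in female libraries. Apaf1, the scaffold of the apoptosome, had 74.9, 27.1 and 34.5 CPM in male against 77.4, 24.5 and 60.5 CPM in female libraries. Cycs, the gene of cytochrome c, had a log2 fold change of −0.11 (SE 0.33); it has near-identical pseudogene copies, so its counts are uncertain. Neither apoptosome gene was separate between the sexes.

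The 3 pore formers all had higher male means and all overlapped between the sexes. Bax stood at 47.9, 158.0 and 116.0 CPM in male and 40.6, 118.3 and 66.6 CPM in female libraries, with a log2 fold change of 0.51 (SE 0.58). Per kilobase of transcript Bax had the highest mean of the 39 genes in both sexes, at 97.6 ± 50.6 CPM per kb in male and 68.3 ± 36.0 CPM per kb in female libraries (SD, n = 3 each). By library Bax led in 3 of the 6, namely male replicates 2 and 3 and female replicate 2, and Mcl1 in the other 3. Bak1 had 18.9, 84.5 and 68.7 CPM in male and 18.0, 58.3 and 31.0 CPM in female libraries. Bok, a less studied relative that is turned over by the proteasome, had 40.7, 178.1 and 107.0 CPM in male and 37.7, 123.2 and 64.7 CPM in female libraries. In each of the 3 genes replicate 1 was the lowest and replicate 2 the highest library of its sex, so that the spread within a sex, 2.91-fold to 4.47-fold, exceeded the difference between the sexes. With the GC and length offset the log2 fold changes were 0.15 for Bax (SE 0.16), 0.41 for Bak1 (SE 0.30) and 0.15 for Bok (SE 0.21), in place of 0.51, 0.68 and 0.53. The transcripts of the 3 hold 63.6%, 57.1% and 61.0% GC.

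The BH3-only genes split by direction without any passing. Bad, Bik, Bcl2l11 and Bmf had log2 fold changes of 0.80, 0.77, 0.38 and 0.34, whereas Bid, Pmaip1 and Bbc3 had −0.71, −0.69 and −0.60. Bad, which is held inactive by survival kinases, was the most abundant of them per kilobase, at 27.0, 130.7 and 85.4 CPM in male and 20.2, 82.3 and 37.5 CPM in female libraries. Bcl2l11, the gene of BIM, a strong activator that binds every protector, had 70.1, 44.9 and 44.2 CPM in male and 46.8, 34.3 and 41.5 CPM in female libraries, and the lowest male library lay within the female range. Bmf, whose protein is held at the cytoskeleton and freed on detachment, had 63.0, 189.7 and 127.5 CPM in male and 52.1, 144.1 and 103.7 CPM in female libraries. Bid, which caspase 8 cleaves to link both routes, had 6.04, 9.20 and 9.02 CPM in male and 8.49, 17.8 and 13.5 CPM in female libraries. Bbc3 and Pmaip1, the p53 targets PUMA and NOXA, were low: Bbc3 averaged 5.33 ± 3.10 CPM in male and 8.06 ± 4.28 CPM in female libraries, and Pmaip1 0.456 ± 0.179 and 0.734 ± 0.529 CPM (SD, n = 3 each). Bbc3 had −0.92 (SE 0.25, adjusted p = 0.0891) and Bid −0.78 (SE 0.23, adjusted p = 0.111) once GC content and length were offset, both short of an adjusted p of 0.05. Exons of Bid and Bcl2l13 overlap on opposite strands, over 17.7% of the exon bases of Bid, and Bad shares 20.5% with Gpr137, so reads there cannot be told apart.

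**Figure D3:**
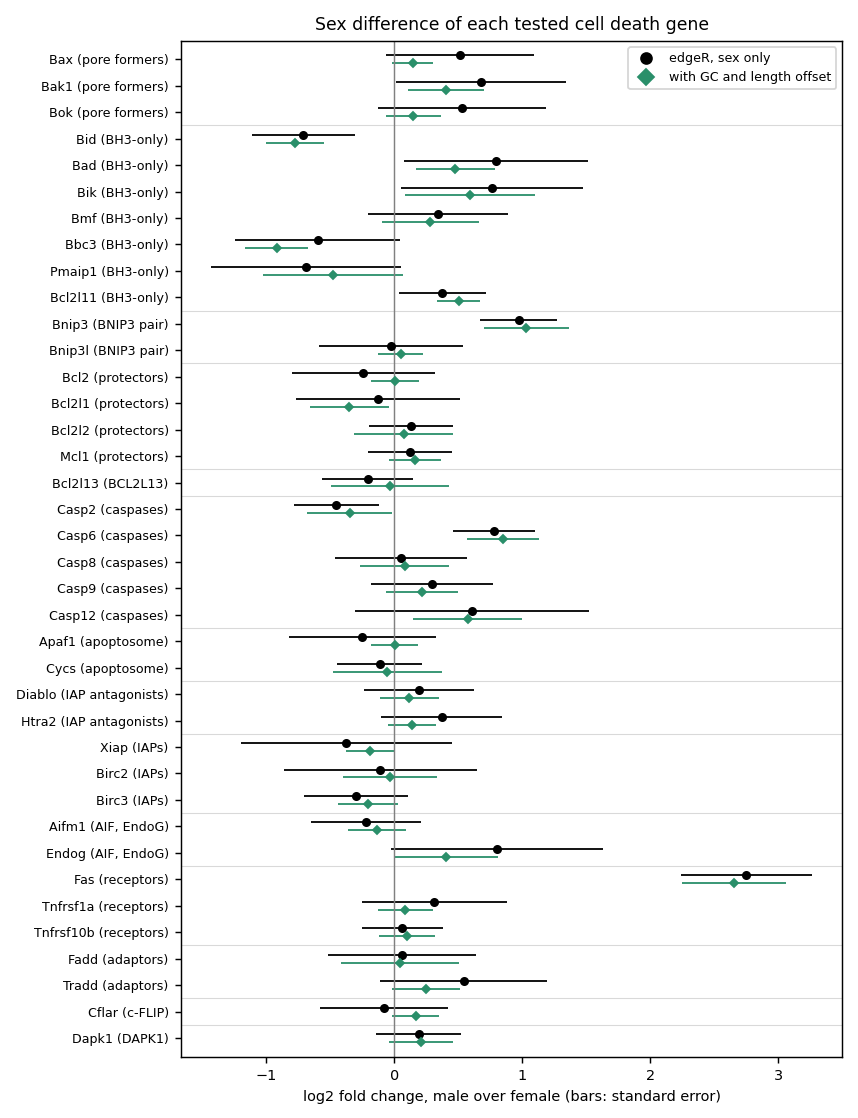
Log2 fold change, male over female, of the 38 tested cell death genes by edgeR with sex alone (black circles) and with the GC and length offset (green diamonds); bars are standard errors. Fas stands at 2.75 and 2.66, beyond all others, and the 3 pore formers move toward 0 with the offset.

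None of the 4 BCL2-type protectors passed the test, and the libraries of the sexes overlapped in each. Mcl1, a short-lived protector, had 67.4 ± 14.7 CPM per kb in male and 62.0 ± 9.05 CPM per kb in female libraries (SD, n = 3 each), the highest mean of the protectors, although Bcl2l1 was above it per kb in both replicate 2 libraries. Its levels were 277.4, 177.4 and 236.0 CPM in male and 224.8, 176.4 and 234.0 CPM in female libraries, with a log2 fold change of 0.12 (SE 0.33). Bcl2l1, the gene of BCL-XL, had 35.9, 142.7 and 101.6 CPM in male against 45.2, 157.0 and 104.0 CPM in female libraries (−0.13, SE 0.64), and −0.35 (SE 0.31) once GC content and length were offset. Bcl2 itself had 59.6, 19.6 and 31.2 CPM in male against 61.2, 21.2 and 47.9 CPM in female libraries (−0.24, SE 0.56), and Bcl2l2 had 0.13 (SE 0.33). Summed per kilobase, the 4 protectors came to 119.8 ± 3.79 CPM per kb in male and 117.7 ± 12.3 CPM per kb in female libraries (SD, n = 3 each), while Bcl2 and Bcl2l1 ran in opposite directions across the replicates. Bcl2l13, a BCL2 relative on mitochondria with a role in mitophagy, had −0.21 (SE 0.36).

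Killers relative to protectors were compared as ratios of CPM per kb within a library, as a description without a test. The pore formers, Bok among them, over the 4 protectors came to 0.677, 2.54 and 1.67 in male libraries. In female libraries they came to 0.677, 1.74 and 0.938, which overlap with the male values. The ratio of Bax to Bcl2 ranged even further, from 5.25 to 52.8 in male and from 4.34 to 36.4 in female libraries, low in both replicate 1 libraries and high in both replicate 2 libraries. Bax and Bcl2 transcripts differ in GC content, with 63.6% and 46.3%. Against Bcl2l1, with 55.9% GC, the spread within a sex shrank. Bax over Bcl2l1 was 3.11, 2.59 and 2.67 in male and 2.10, 1.76 and 1.49 in female libraries, and Bad over Bcl2l1 was 1.26, 1.53 and 1.41 in male and 0.750, 0.878 and 0.604 in female libraries. In both pairs every male ratio lay above every female ratio, although none of the 3 genes alone was separate between the sexes; both pairs were picked after the counts were seen. Of all 40 pairs of a tested pore former or BH3-only gene with a protector, 6 had male above and 1 male below. All 7 had Bcl2l1 as the protector, so they share a denominator and are not 7 separate observations. How often other genes divided by Bcl2l1 would separate the sexes is not given here. The 2 fitted log2 fold changes differed by 0.64 for Bax and Bcl2l1 and by 0.92 for Bad and Bcl2l1, and with the GC and length offset by 0.50 and 0.83. For Bax and Bcl2 the difference was 0.75, and 0.14 with the offset. Fas over Cflar was 0.271, 0.267 and 0.274 in male and 0.0242, 0.0767 and 0.0343 in female libraries, where Fas alone was already separate between the sexes.

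**Figure D4:**
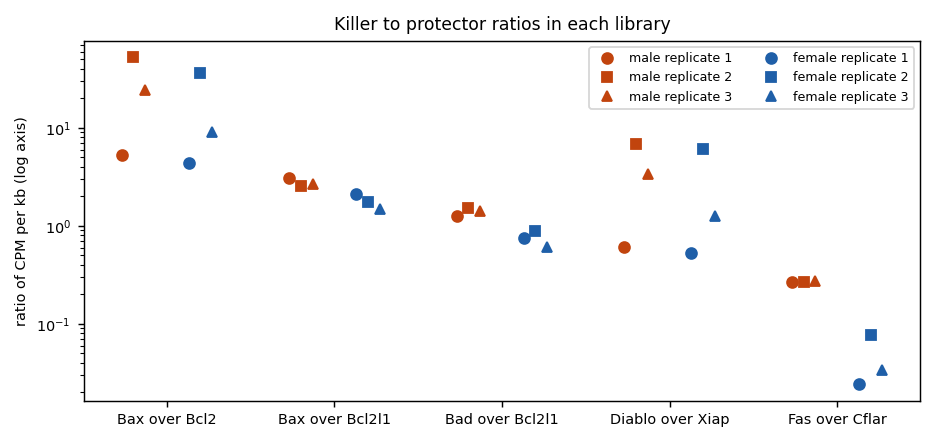
Ratio of CPM per kb of 5 gene pairs in each library (log axis), male left of female, with the marker shape giving the replicate number. Bax over Bcl2 and Diablo over Xiap spread widely within each sex, while Bax over Bcl2l1, Bad over Bcl2l1 and Fas over Cflar separate the sexes. Fas is already separate without Cflar.

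All 3 IAP genes had negative log2 fold changes and both of their antagonists positive ones, none past the threshold. With the GC and length offset Xiap, Birc2 and Birc3 had −0.19, −0.03 and −0.20, and Diablo and Htra2 0.12 and 0.14. The directions of Xiap, Birc2, Birc3 and Diablo turned when libraries were left out, and that of Htra2 did not. Xiap, the direct caspase inhibitor, is X-linked and had 150.1, 28.5 and 45.0 CPM in male against 165.5, 28.6 and 95.8 CPM in female libraries (−0.37, SE 0.82). Birc2 and Birc3, which act on TNF receptor signalling as ubiquitin ligases, had −0.11 (SE 0.76) and −0.30 (SE 0.40). Diablo, the gene of SMAC, had 44.8, 97.3 and 76.1 CPM in male and 43.6, 87.1 and 60.3 CPM in female libraries. The protease gene Htra2 had 34.3, 82.7 and 58.4 CPM in male and 29.9, 68.2 and 37.6 CPM in female libraries; it shares 25.6% of its exon bases with Aup1 on the other strand. Diablo over Xiap ran from 0.603 to 6.90 in male and from 0.532 to 6.15 in female libraries. Aifm1, the gene of the flavoprotein AIF, and Endog, a mitochondrial nuclease, had −0.22 (SE 0.43) and 0.80 (SE 0.83); Endog shares 35.7% of its exon bases with Spout1 on the other strand, which held 9237 counts. Dapk1, a calmodulin-dependent death kinase, had 145.6, 113.8 and 83.8 CPM in male and 97.0, 93.4 and 110.3 CPM in female libraries, which overlapped.

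The spread within a sex followed GC content. Of the 38 tested genes, 15 were highest in replicate 1 of both sexes and 18 highest in replicate 2 of both. The first 15, among them Xiap, Birc2, Bcl2, Apaf1 and Cflar, had transcripts of 36.8% to 53.1% GC, and the other 18, among them Bax, Bak1, Bok, Bad and Bcl2l1, 47.8% to 65.2%. Over the 38 genes the log2 ratio of replicate 2 to replicate 1 correlated with GC content at a Spearman rho of 0.878 in male and 0.876 in female libraries, as a description over genes that share their libraries. The sex difference had a rho of 0.337 with GC content over the 38 and 0.278 over the 14674 tested genes with a GC value, and 0.169 over the 38 with the offset. In 35 of the 38 the largest fold between libraries of one sex exceeded the fitted fold between the sexes, as in 89.9% of all genes tested. The 3 exceptions were Fas, Bnip3 and Casp6. The share of uniquely placed counts outside genes was 18.2%, 5.45% and 5.50% in male and 17.5%, 3.53% and 8.65% in female replicates 1 to 3.

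**Figure D5:**
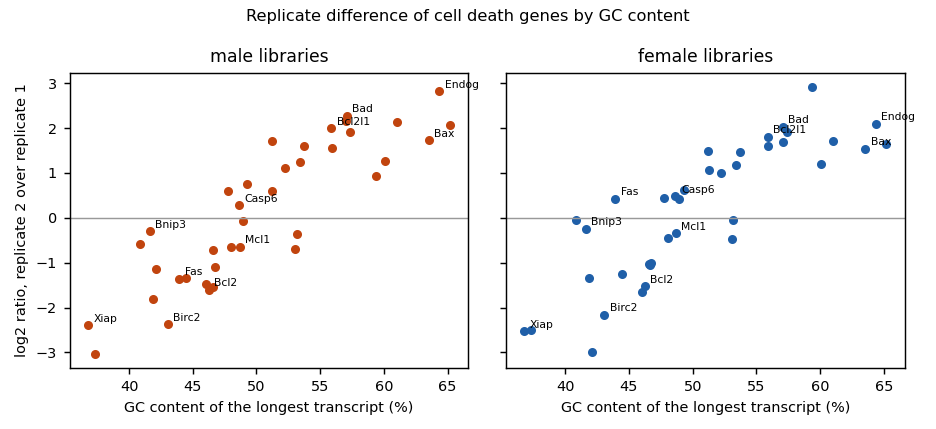
Log2 ratio of replicate 2 over replicate 1 of the 38 tested cell death genes against the GC content of the longest transcript, in male and in female libraries. Genes of low GC content such as Xiap and Birc2 lie below 0 and genes of high GC content such as Bax, Bad and Endog above 0 in both sexes.

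Of 37 further genes of the machinery, 24 were tested and 0 passed by edgeR, with 0 at an unadjusted p under 0.05 and 0 by DESeq2; the median log2 fold change was 0.03. Gsdmd, the pore protein of inflammatory death, had 28.6, 52.8 and 46.4 CPM in male against 59.5, 105.8 and 70.3 CPM in female libraries, which did not overlap (−0.88, SE 0.39, edgeR adjusted p = 0.594). Dapk2, a kinase related to Dapk1, had 0.96 (SE 0.44). Birc5, Parp1 and Pidd1 also had no overlap, lower in male, with log2 fold changes of −0.63, −0.62 and −0.51, so that 4 of the 24 had male below and 0 male above, against 7.27% and 6.47% of all genes. Of the p53 gene and its targets outside the 39, 14 of 16 were tested and 0 passed by edgeR, with 1 at an unadjusted p under 0.05 and 1 by DESeq2. Plk2, a polo-like kinase gene induced by p53 and by serum, stood at 63.4, 64.0 and 71.9 CPM in male and 21.3, 24.1 and 25.7 CPM in female libraries (1.49, SE 0.29, edgeR adjusted p = 0.0705), and Cdkn1a, the gene of the cell cycle inhibitor p21, at 2.18, 9.69 and 7.08 CPM in male against 8.85, 35.7 and 14.5 CPM in female libraries (−1.64, SE 0.73). Trp53 itself had 0.05 (SE 0.43), and Zmat3, a p53 target, had 23.0, 20.5 and 22.1 CPM in male against 31.9, 26.9 and 33.7 CPM in female libraries, without overlap (−0.49, SE 0.29). With the GC and length offset Gsdmd (adjusted p = 0.0106) and Cdkn1a (adjusted p = 0.047) fell and Plk2 (adjusted p = 0.00579) rose by edgeR.

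Hypoxia-induced genes, listed because Bnip3 is one, had 0 of 14 past the threshold by edgeR, 1 at an unadjusted p under 0.05 and 1 by DESeq2, and a median log2 fold change of 0.31. Egln3, an oxygen-sensing prolyl hydroxylase gene, had 8.34, 13.2 and 14.2 CPM in male against 1.87, 3.29 and 4.44 CPM in female libraries (1.89, SE 0.45, edgeR adjusted p = 0.14), and P4ha1, a collagen prolyl hydroxylase gene, 143.2, 106.4 and 132.2 CPM in male against 89.4, 78.6 and 81.0 CPM in female libraries (0.62, SE 0.30). Neither pair of groups overlapped. Of genes that clear dying cells, 15 of 17 were tested and 0 passed by edgeR, with 1 at an unadjusted p under 0.05 and 1 by DESeq2. Elmo1, an engulfment adaptor gene, had 3.21, 1.53 and 2.36 CPM in male against 13.6, 11.1 and 10.8 CPM in female libraries, without overlap (−2.31, SE 0.41, edgeR adjusted p = 0.0542), and the channel gene Panx1 had −0.84 (SE 0.46). Of the endoplasmic reticulum stress genes 13 of 14 were tested and 0 passed, with 0 at an unadjusted p under 0.05 and 0 by DESeq2; Ddit3, the gene of CHOP, and Ppp1r15a had 0.74 (SE 0.40) and 0.75 (SE 0.65). With the GC and length offset Egln3 rose (adjusted p = 0.022) and Elmo1 fell (adjusted p = 0.00671) by edgeR, and Elmo1 also fell by limma-voom (adjusted p = 0.0443).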

How the data were processed

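The values the authors deposited are raw counts of reads, by Ensembl gene, 1 file a library. Per the submitters' processing notes, TopHat, HTSeq, DESeq and mm9 were used, with no role or version. Which annotation and which strand setting served the counting is not given in the sources used here. Libraries were made with TruSeq v2 and read as paired 76-base reads, per the labels' protocols. The 5 summary lines per file that name no gene stayed out of library sizes and tests (outside genes, 3.53% to 18.2%, and ambiguous, 6.51% to 10.0%, of uniquely placed counts).

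Everything else was computed here. Genes kept by filterByExpr (15227) were TMM-scaled and went into edgeR 4.0.16 under R 4.3.3 (robust quasi-likelihood, sex as the only term, two-sided, adjusted over all genes tested, threshold 0.05); each SE divides the size of the log2 fold change by √F. P-values measure the spread between these libraries only. Alternatives were other scalings and filters, DESeq2 1.42.0, limma-voom (limma 3.58.1), a replicate block, a GC and length offset (splines with 5 degrees of freedom; 96.4% of tested genes had a value), another threshold and leaving out libraries. Length, GC content and overlaps come from GENCODE M21 (GRCm38), used for names and these properties. Levels per kb divide CPM by the longest transcript. Fits were tested on simulated data.

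Genes named are those without overlap between the sexes, the highest per kb of each role, members past the threshold or with an adjusted p under 0.10, and from each further list those past the threshold, otherwise the 2 with the smallest p; others given with values were added after values were seen. The members and lists were chosen with earlier results of these data known.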

Additional observations from a re-analysis of the deposited data

Results flagged for a closer look

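Counts outside annotated genes entered no comparison, and their share of the uniquely placed counts was above the limit that a count of 0 allows in every library: 18.2%, 5.45% and 5.50% in male and 17.49%, 3.53% and 8.65% in female replicates 1 to 3. With groups of 3, no library of a group was tested as standing apart from the others.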

How the results depend on the processing

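Of all genes tested 187 passed, and 771 with DESeq2, 905 with the GC and length offset, 386 at an adjusted p of 0.10 and 0 to 354 without single libraries or both libraries of a replicate number. Of the cell death genes 0 passed, and 2 with DESeq2, 1 with the offset, 1 at 0.10 and 0 to 0 without libraries, where 1 to 3 had an unadjusted p under 0.05. Of the other machinery 1 passed with the offset; of the p53 list 1 with DESeq2, 2 with the offset and 1 at 0.10; of the hypoxia list 1 with DESeq2 and 1 with the offset; of the clearance list 1 with DESeq2, 1 with limma-voom, 1 with the offset, 1 at 0.10 and 0 to 1 without libraries. Leaving out both libraries of a number was chosen after seeing the data. The causes were not tested.

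The labels' replicate numbers were not used as pairs. Deviations from the sex means over 15227 genes correlated at 0.956 between the replicate 1 libraries, 0.911 between the replicate 2 libraries and −0.0468 between the replicate 3 libraries, and male replicate 3 correlated best with female replicate 2, at 0.656. With the replicate block 4164 of all 15227 genes tested passed, 1997 higher and 2167 lower in male. With block and offset 4418 passed, 2069 higher and 2349 lower. Of the 38 tested cell death genes 12 passed with the block. Of these, 9 were higher (Fas, Bnip3, Casp6, Bad, Bak1, Bax, Bok, Tradd, Endog) and 3 lower (Bid, Bbc3, Casp2). With block and offset 10 passed. Those 10 held Bmf, Bcl2l11 (both higher) and Bcl2l1 (lower; −0.36, adjusted p = 0.0171) and none of Bax, Bak1, Bok, Tradd and Endog. The block called 11 of the other machinery, 6 of the p53, 4 of the endoplasmic reticulum stress, 7 of the hypoxia and 6 of the clearance list, and with the offset 10, 5, 3, 6 and 7.

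Of the 38 tested cell death genes 17 kept their direction in every alternative that gave them a value, 17 to 19 for each gene. Log2 fold changes turned with the offset for Bnip3l (0.050, and 0.045 with the block), Bcl2 (0.009 and 0.006), Apaf1 (0.005 and 0.012) and Cflar (0.17 and 0.17), with the offset and block for Cycs (0.02) and Fadd (−0.001), and with limma-voom for Casp8 (−0.004). They turned without single libraries for Bok (−0.029 to 1.09), Bmf (−0.074 to 0.71), Bnip3l (−0.58 to 0.39), Bcl2 (−0.78 to 0.09), Bcl2l1 (−0.57 to 0.33), Bcl2l2 (−0.041 to 0.29), Mcl1 (−0.035 to 0.27), Casp8 (−0.46 to 0.46), Casp9 (−0.15 to 0.66), Casp12 (−0.56 to 1.52), Apaf1 (−0.81 to 0.10), Cycs (−0.30 to 0.049), Diablo (−0.079 to 0.49), Xiap (−1.40 to 0.26), Birc2 (−1.02 to 0.54), Birc3 (−0.53 to 0.021), Aifm1 (−0.54 to 0.058), Tnfrsf10b (−0.13 to 0.20), Fadd (−0.24 to 0.47), Cflar (−0.58 to 0.26) and Dapk1 (−0.05 to 0.43). The fitted log2 fold changes of Bad and Bcl2l1 differed by 0.77 to 1.17 without single libraries. Depth limits Fas, Hrk, Bik and Pmaip1, whose counts are low.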
